A study of Mus musculus with 21 samples.

Results

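Small structured noncoding RNAs were taken as all genes whose name begins with Snora, Snord, Scarna or Rnu followed by a digit, together with Rn7sk, Rpph1, Rn7s1, Rn7s2, Rmrp and Terc. The cell-state table listed 83 of them among 21161 gene names, and the lactate table listed 170 among 55291, including all 83. The 83 comprised 39 Snord, 19 Snora, 7 Scarna and 12 Rnu names and the 6 RNAs named singly, and the 170 comprised 98 Snord, 40 Snora, 9 Scarna and 17 Rnu names and the same 6. Every one of the 83 reached at least 0.5 FPKM in some cell-state library, whereas 23 of the 170 were listed at 0 in all 9 lactate libraries.

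The 21 mouse libraries all carry the cell line label OG2, fibroblasts included. The 12 cell-state libraries, each with the treatment label WT, are 3 of 2-cell-like cells (2CLCs, stem cells with transcripts of the 2-cell embryo), 3 of embryonic stem cells (ESCs), 3 of epiblast stem cells (EpiSCs, a primed form of pluripotency) and 3 of mouse embryonic fibroblasts (MEFs). The 9 lactate libraries are ESCs with 0, 60 or 80 mM sodium lactate, 3 of each. How the 2CLCs were obtained and how long lactate was applied are not stated in the sources used here. The labels number the replicates without saying whether they were separate cultures, so p-values measure only the spread between these libraries. Values are FPKM, fragments scaled to transcript length and library depth, from total RNA and a TruSeq RNA kit whose form is not stated in the sources used here.

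RNAs of this kind work as structures and not as messages. The U1 RNA recognises the 5′ splice site and the U2 RNA the branch point of an intron. 7SK (Rn7sk) holds the elongation kinase P-TEFb inactive through HEXIM proteins. 7SL (Rn7s1 and Rn7s2) is the core of the signal recognition particle, which takes ribosomes to the endoplasmic reticulum. Rpph1 is the RNA of RNase P, which trims tRNA precursors, Rmrp is that of RNase MRP and Terc is the template of telomerase. Box C/D RNAs (Snord) guide methylation, and box H/ACA RNAs (Snora) guide pseudouridylation, mainly of ribosomal RNA. Small Cajal body RNAs (Scarna) guide the same changes on spliceosomal RNAs, and most guides are cut from introns of host genes. The mature forms mostly lack a stable poly(A) tail, so their FPKM depends on how a library was made as well as on the amount in the cell, and this dependence was not tested. Classes here follow names, so Rnu also holds the U3 copies and Rnu73b, which are box C/D RNAs and not splicing RNAs.

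Sequences are shown for Rn7sk and Rnu1b6, whose called changes in 2CLCs were large, and for Terc, whose call turns on a doubled entry. They were read from GRCm38 at the places that GENCODE M21 gives for each name, 5′ to 3′ with T for U. For Rn7sk (chr9:78175303-78175633, minus strand) bases 1 to 120 of 331 are given, and capitals mark GATC, the letters repeated in the hairpin that HEXIM binds. Bases 1 to 60 of 166 are given for Rnu1b6 (chr3:96460024-96460189, minus strand), a U1 copy, with capitals on ACTTACCT, which pairs with the 5′ splice site. Bases 1 to 90 of 423 are given for Terc (chr3:96414437-96414859, minus strand), with capitals on CTAACCCT, which lies in the telomere template.
Rn7sk: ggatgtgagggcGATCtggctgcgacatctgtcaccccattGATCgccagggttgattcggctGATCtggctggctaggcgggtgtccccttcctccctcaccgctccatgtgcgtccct
Rnu1b6: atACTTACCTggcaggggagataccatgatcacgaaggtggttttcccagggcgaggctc
Terc: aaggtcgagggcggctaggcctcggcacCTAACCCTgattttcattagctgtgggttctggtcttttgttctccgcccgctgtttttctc

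On the RNA's own strand, GATC stood in 66 of the 170 members (38.8%) and at least 3 times in 4 of them (2.35%), which were Rn7sk, Rn7s1, Rn7s2 and Scarna2. ACTTACCT stood in 4 of 170 (2.35%), all of them U1 copies, and CTAACCCT in 1 of 170 (0.588%), Terc. Rn7s1 and Rn7s2 were identical over 300 of 300 bases, Rnu1b1 and Rnu1b2 over 165, and the 4 Rnu3b copies of U3 over 215. The other U1 pairs were 95.2 to 98.2% identical. How reads were divided among such copies is therefore uncertain.

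The small nucleolar RNAs shown next are named guides with large differences between cell states, grouped by host gene, and 2 long ones that moved against their class. In Snord sequences capitals mark TGATGA (box C) within the first 26 bases and CTGA (box D) within the last 20, and in Snora sequences they mark ACA within the last 10. Snord49b (chr11:62603079-62603150), Snord49a (chr11:62603450-62603521) and Snord65 (chr11:62604515-62604586) follow each other on the plus strand in introns of 2410006H16Rik. Snord32a (chr7:45127382-45127464), Snord34 (chr7:45126601-45126670) and Snord35a (chr7:45126346-45126435) lie on the minus strand in introns of Rpl13a, which encodes a ribosomal protein. Snora57 (chr19:8888538-8888685, minus strand) lies in no annotated gene on its strand. Snord17 (chr2:144265979-144266216, minus strand, intron of Snx5) and Snora23 (chr7:110046364-110046547, plus strand, intron of Ipo7) are long members of their classes, at 238 and 184 bases.
Snord49a: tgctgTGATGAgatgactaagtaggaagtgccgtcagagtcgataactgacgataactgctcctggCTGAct
Snord49b: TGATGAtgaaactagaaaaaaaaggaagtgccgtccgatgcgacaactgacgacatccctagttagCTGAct
Snord65: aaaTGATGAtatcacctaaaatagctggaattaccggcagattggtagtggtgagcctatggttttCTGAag
Snord32a: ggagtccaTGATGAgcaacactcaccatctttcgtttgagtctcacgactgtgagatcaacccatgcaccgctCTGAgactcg
Snord34: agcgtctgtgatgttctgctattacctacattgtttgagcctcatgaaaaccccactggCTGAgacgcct
Snord35a: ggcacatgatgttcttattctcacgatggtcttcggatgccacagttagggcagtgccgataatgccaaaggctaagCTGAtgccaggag
Snora57: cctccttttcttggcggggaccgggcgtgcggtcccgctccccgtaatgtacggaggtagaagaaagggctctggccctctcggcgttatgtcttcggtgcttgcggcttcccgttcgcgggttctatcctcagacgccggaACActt
Snord17: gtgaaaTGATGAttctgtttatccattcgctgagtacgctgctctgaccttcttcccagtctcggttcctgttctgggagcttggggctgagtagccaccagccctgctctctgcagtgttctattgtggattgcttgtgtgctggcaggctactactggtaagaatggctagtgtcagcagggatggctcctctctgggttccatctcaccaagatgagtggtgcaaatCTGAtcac
Snora23: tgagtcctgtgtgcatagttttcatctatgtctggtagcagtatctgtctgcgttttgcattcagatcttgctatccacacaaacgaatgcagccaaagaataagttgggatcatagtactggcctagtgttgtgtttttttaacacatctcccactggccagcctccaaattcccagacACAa

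Over all annotated members of each class, CTGA stood in the last 20 bases of 96 of 98 Snord RNAs (98%) and of 4 of 40 Snora RNAs (10%). TGATGA stood in the first 26 bases of 69 of 98 Snord RNAs (70.4%) and of 0 of 40 Snora RNAs, and Snord34 and Snord35a are among those without it. ACA stood in the last 10 bases of 38 of 40 Snora RNAs (95%) and of 8 of 98 Snord RNAs (8.16%).

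Defining markers followed the labels. Zscan4c averaged 5907 FPKM in 2CLCs and 2.34 in ESCs, Fgf5 averaged 36.2 in EpiSCs, and Col1a1 averaged 310 in MEFs against 0.209 to 0.857 in the other groups. Within groups, libraries correlated at a Pearson r of 0.989 or more across tested genes, apart from EpiSC replicate 1, for which r was 0.973 with each of the remaining pair of EpiSC libraries. Read counts were not used, but low values gave a measure of depth. In each library 1 small FPKM value recurred, at 18 to 40 names in the cell-state table and 62 to 94 in the lactate table, most of them up to 150 bases long, and other names stood at 2 and 3 times it. This step was 0.407 to 0.435 FPKM in 2CLCs, 0.225 to 0.249 in the other cell states and 0.290 to 0.326 in the lactate table. Among the 56 members tested in the cell-state table, 15 to 23 stood below 3 steps in a 2CLC library, 7 or 8 in an ESC library, 6 to 8 in an EpiSC library and 15 or 16 in a MEF library, so their values there rest on very few fragments.

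A gene was tested where 3 or more libraries of its table reached 1 FPKM. Tests used limma on log2(FPKM + 1), a scale that makes changes of low genes smaller, and p-values were adjusted by Benjamini-Hochberg over all genes tested, with a call at 0.05. Of the 83 cell-state members 56 passed this filter, namely 32 Snord, 14 Snora, 4 Rnu and the 6 single RNAs, and none of the 7 Scarna. Of these 56, Rnu1a1, Rnu1b6, Rnu2-10, Rpph1 and Snord85 passed only through their 3 2CLC libraries, with at most 1 other library at 1 FPKM, as Snora62 did through ESCs and Snord71 through EpiSCs, so the filter fixed that they are high there. Snord15a passed with 2 ESC and 2 EpiSC libraries. The 3 cell-state comparisons share the ESC libraries. In bulk RNA, fewer cells of a type and less RNA per cell cannot be told apart.

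In 2CLCs the tested members of at least 160 bases were called higher than in ESCs, while more of the shorter ones were called lower than higher. Of the 56 tested members, 13 were called higher and 28 lower, against 20.1% higher and 56.4% lower among all 16358 genes tested (76.5% in either direction). The members' median log2 fold change was -0.54, close to the -0.46 over all genes tested. With median-of-ratios scaling the median over all genes moved to 0.02 and the members split into 15 higher and 13 lower, so the balance of the calls depends on the scaling. All 6 single RNAs and 3 of 4 Rnu members were called higher, whereas 19 of 32 Snord (median -0.58) and 9 of 14 Snora (median -0.80) were called lower, with 2 of each called higher. With median-of-ratios scaling the single and Rnu counts were the same, and the lower calls were 9 Snord (median -0.17) and 4 Snora (median -0.35). Rpph1 and the 3 Rnu members called higher had to be high by the filter, so their direction was set in advance.

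The 3 2CLC libraries gave Rn7sk 51.9, 44.9 and 68.4 FPKM, and the 3 of ESCs gave it 3.24, 2.93 and 2.17. In multiples of the step these are 103 to 165 against 9.21 to 13.5, so the difference does not rest on a few fragments. The means of 55.0 ± 12.1 and 2.78 ± 0.552 (SD, n = 3) differ 19.8-fold (log2 fold change 3.88, SE 0.337, limma adjusted p = 8.27e-07). Every 2CLC library lay above every other cell-state library, the highest of which was EpiSC replicate 2 at 7.40.

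The RNA of the signal recognition particle moved the same way. Rn7s1 stood at 21.7, 24.2 and 17.6 FPKM in 2CLCs and at 1.25, 1.81 and 1.60 in ESCs (means 21.2 ± 3.32 and 1.55 ± 0.281, log2 fold change 3.11, SE 0.246, limma adjusted p = 3.71e-07). Its identical copy Rn7s2 gave 21.6, 27.9 and 18.1 against 1.42, 1.88 and 1.79 (log2 fold change 3.11, adjusted p = 4.51e-07). The groups did not overlap, and the ratio of means was 13.6 for Rn7s1 and 13.3 for Rn7s2. Because of their identity the 2 values are a single observation divided between copies.

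Rpph1, the RNase P RNA, stood at 6.09, 4.89 and 3.59 FPKM in 2CLCs and at 0.109, 0.104 and 0.175 in ESCs. The ESC values are under 1 step, so no ratio is given, and the log2 fold change was 2.35 (SE 0.188, limma adjusted p = 4.07e-07). All 9 libraries of the other states lay at 0.675 or below, so Rpph1 was tested only because of its 2CLC libraries.

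**Figure D1:**
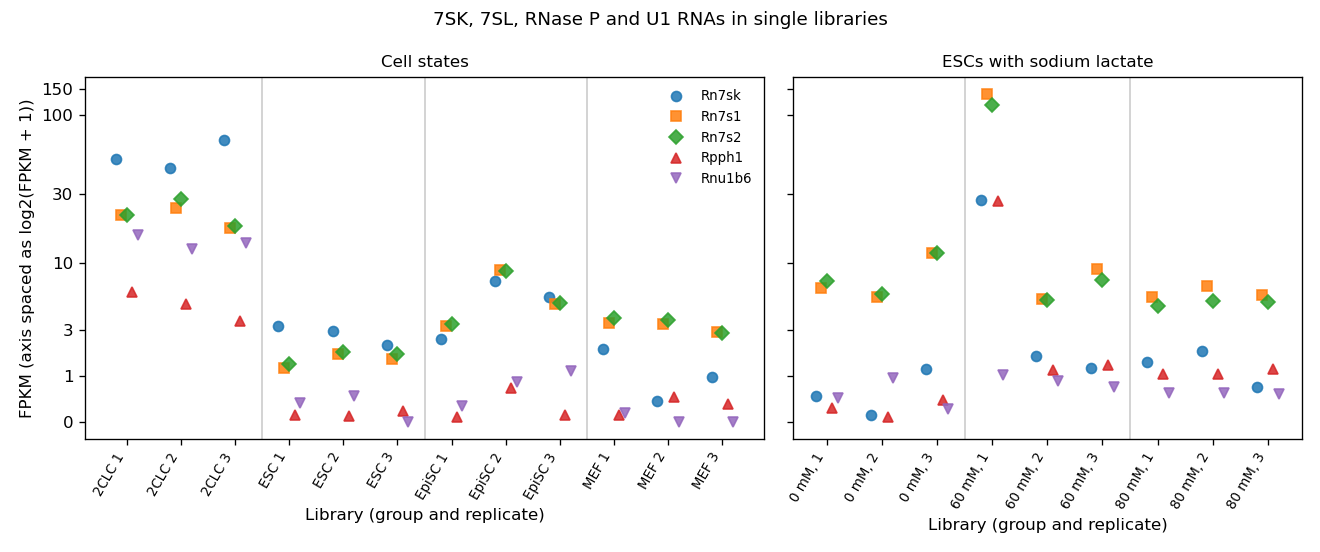
FPKM of Rn7sk, Rn7s1, Rn7s2, Rpph1 and the U1 copy Rnu1b6 in each of the 12 cell-state and 9 lactate libraries, with the vertical axis spaced as log2(FPKM + 1). The 3 2CLC libraries stand above the other 9 cell-state libraries for all 5 RNAs, and replicate 1 of 60 mM lactate stands alone for Rn7sk, Rn7s1, Rn7s2 and Rpph1.

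Splicing RNAs were also high in 2CLCs. Rnu1b6, a U1 copy, stood at 15.7, 12.5 and 13.8 FPKM in 2CLCs and at 0.332, 0.487 and 0 in ESCs (log2 fold change 3.57, SE 0.195, limma adjusted p = 1.53e-08). A further U1 copy, Rnu1a1, stood at 4.37, 7.19 and 6.85 against 0.391, 0 and 0.336 (log2 fold change 2.51, adjusted p = 1.95e-07). Rnu2-10, a U2 copy, stood at 1.89, 2.22 and 2.11 against 0.157, 0.157 and 0.278 (log2 fold change 1.36, adjusted p = 2.67e-09). In ESCs these 3 RNAs stood at 0 to 2.03 steps, and in MEFs Rnu2-10 was listed at 0 in all 3 libraries. These 3 were tested only because of their 2CLC libraries. The untested U1 copies Rnu1b1 (1.82, 0.943 and 0.986 FPKM in 2CLCs) and Rnu1b2 (2.35, 0.547 and 1.17) also lay above all other cell-state libraries, and these 2 and Rnu2-10 are named because of those values.

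Terc and Rmrp were called higher, but these calls rest on how a doubled entry is read and on which libraries share the fit. Among cell-state names 35 stand on more than 1 entry, 7 of them members, and for all 7 the entries are equal in every library but 2CLC replicate 1. The 2 Terc entries give 53.2 and 0.491 FPKM in that library, beside 4.42 and 2.32 in the other 2CLC libraries and 0.849, 0.552 and 2.12 in ESCs. With the entries summed the log2 fold change of Terc was 2.22 (limma adjusted p = 0.0111), with the higher entry alone 2.26 (adjusted p = 0.0226) and with the lower alone 0.53 (adjusted p = 0.252). For Rmrp, at 0 or 3.71 in that library, 3.71 and 7.98 in the others and 2.17, 1.14 and 0.931 in ESCs, the corresponding values were 1.25 (adjusted p = 0.0327), 1.31 (adjusted p = 0.00428) and 0.56 (adjusted p = 0.447). Which entry is right is unstated in the sources used here. With only the compared groups in the fit neither was called (adjusted p = 0.0582 for Terc and 0.0603 for Rmrp), nor was Rmrp on rescaling without members, histone, rRNA and mitochondrial genes (1.02, adjusted p = 0.0659). The Rmrp call was also lost without 2CLC replicate 2 (1.28, adjusted p = 0.0658), 2CLC replicate 3 (0.77, adjusted p = 0.15), ESC replicate 2 (1.16, adjusted p = 0.0847) or ESC replicate 3 (1.07, adjusted p = 0.104).

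Among tested members, the direction of the calls differed by length. This split was chosen after the values were seen. All 11 tested members of at least 160 bases (164 to 423) were called higher in 2CLCs, with a median log2 fold change of 2.35. Rnu1a1, Rnu1b6, Rnu2-10 and Rpph1 are among the 11 and had to be high by the filter, and Terc and Rmrp among them depend on their doubled entries. Of the 45 shorter ones (64 to 149 bases), 28 were called lower, 15 were not called and 2, Snord85 (0.77) and Snora30 (0.98), were called higher, with a median of -0.66. Snord85 also had to be high by the filter. With median-of-ratios scaling the long members were still all called higher (median 2.87), and of the short ones 4 were called higher and 13 lower (median -0.25). Snora30 was not called without ESC replicate 2 (0.74, adjusted p = 0.0525), and both are named because they were the exceptions. Of the 11 long members Rnu1a1 (intron of Tex14), Snora23 and Snord17 lie in introns, and of 4 short members without a host gene 3 were called lower and none higher.

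The filter left 12 further members of at least 160 bases untested. The mean was higher in 2CLCs than in ESCs for 9 of them and lower for 3. Snora73a, an H/ACA guide of 205 bases, stood at 0.216 to 0.299 FPKM in 2CLCs and 0.777 to 1.27 in ESCs, without overlap. Scarna10, of 325 bases, stood at 0.0629 to 0.455 against 0.480 to 1.25, and Scarna13, of 275 bases, at 0 to 0.527 against 0.197 to 0.869. The 9 higher means belong to 2 U1 copies, the 5 copies of U3, Scarna2 and Scarna6. The Rnu3b1 mean, with its 2 entries summed, was 4.46 against 0.129.

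Snord17 and Snora23, both shown above, were high in 2CLCs against the direction of most guides, and are named for that reason. Snord17 stood at 6.37, 5.14 and 7.04 FPKM in 2CLCs and at 2.66, 3.05 and 3.13 in ESCs (log2 fold change 0.86, SE 0.167, limma adjusted p = 0.000635). Snora23 stood at 3.38, 4.53 and 4.35 against 1.72, 0.256 and 1.98 (log2 fold change 1.22, SE 0.351, adjusted p = 0.00781). For neither RNA did the 2 groups overlap.

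**Figure D2:**
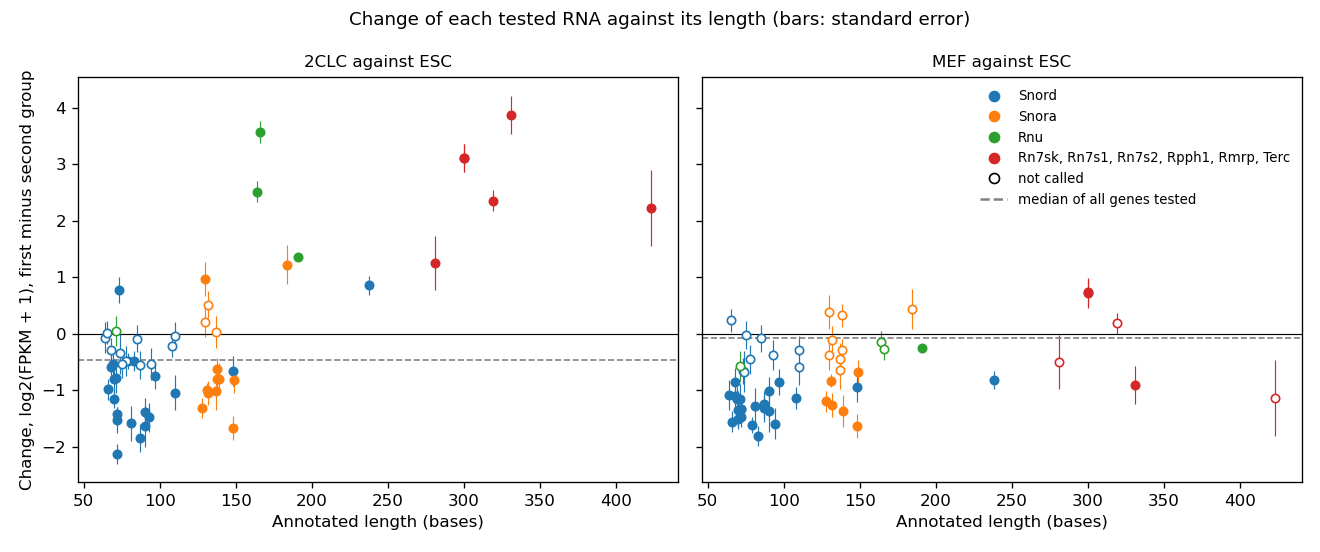
Log2 fold change on the log2(FPKM + 1) scale of the 56 tested members against annotated length in bases, for 2CLCs (left) and MEFs (right) against ESCs. Bars are standard errors, filled points were called and the dashed line is the median of all genes tested; in 2CLCs all 11 members of at least 160 bases lie above 0, and in MEFs most shorter members lie below the line.

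Other RNAs, of kinds that mostly lack a long poly(A) tail, moved as well. The summed FPKM of 58 histone genes, picked by name, was 1776 to 1962 in 2CLCs and 99.1 to 101 in ESCs. It was 86.4 to 98.0 in EpiSCs and 208 to 216 in MEFs. This list of names was added after the data were seen and is not limited to histone RNAs without a tail. The Y RNA Rny1 stood at 11.5 to 14.6 FPKM in 2CLCs and at 0 to 0.229 elsewhere, and the mitochondrial rRNA mt-Rnr2 stood at 342 to 352 in 2CLCs and 215 to 234 in ESCs. The other mitochondrial rRNA, mt-Rnr1, overlapped between them, at 207 to 281 and 199 to 228. Malat1, a long RNA whose end is a triple helix in place of a tail, went the other way, with 15.8 to 17.5 in 2CLCs and 30.1 to 35.4 in ESCs. Their part in the result was not tested. Rn7sk, Rn7s1, Rn7s2, Rpph1 and Rmrp together held 31.3 to 40.8% of the members' FPKM in 2CLCs, 3.09 to 3.80% in ESCs, 5.003 to 11.7% in EpiSCs and 8.94 to 9.19% in MEFs.

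Over all 83 listed members, tested or not, the 3 2CLC libraries lay above all 9 other cell-state libraries for 17, below them for 5 and among them for 61. Over all 21161 names listed, 15.3% lay above in this way and 29% below. The 17 were Rn7sk, Rn7s1, Rn7s2, Rpph1, Terc, 4 U1 copies, Rnu2-10, the U3 copies Rnu3b1 and Rnu3b4, Snora23, Snord17, Snord67, Snord85 and Snord90. With the lower of the repeated entries there were 16, without Terc. The 5 were Snora47, Snord23, Snord49a, Snord89 and Snord91a.

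Among the guides that fell in 2CLCs, the trio in 2410006H16Rik showed large changes. Snord49a stood at 1.78, 2.33 and 3.31 FPKM in 2CLCs and at 16.3, 13.7 and 11.96 in ESCs, a 5.65-fold difference of means (log2 fold change -2.12, SE 0.177, limma adjusted p = 5.99e-07). In multiples of the step these are 4.38 to 8 against 50.7 to 67.7. Snord49b stood at 2.36, 4.54 and 6.49 against 16.1, 13.5 and 12.5 (log2 fold change -1.53, SE 0.224, adjusted p = 6.95e-05). Snord65 stood at 1.49, 1.90 and 1.62 against 5.33, 5.93 and 7.33 (log2 fold change -1.42, SE 0.132, adjusted p = 1.46e-06). For all 3 the groups were apart by more than their spread.

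The trio in Rpl13a changed less evenly. Snord34 stood at 4.20, 5.87 and 6.21 FPKM in 2CLCs and at 14.9, 11.8 and 13.1 in ESCs (log2 fold change -1.16, SE 0.151, limma adjusted p = 2.71e-05). Snord35a stood at 0.407, 2.88 and 3.40 against 7.45, 9.25 and 7.29 (log2 fold change -1.63, SE 0.364, adjusted p = 0.00162), and its lowest value is exactly 1 step. Snord32a stood at 8.23, 12.9 and 8.98 against 14.4, 14.1 and 14.0 (log2 fold change -0.48, adjusted p = 0.0279). With median-of-ratios scaling Snord32a became 0.23, and Snord55 and Snord42b, called lower at -0.48 and -0.54, became 0.24 and 0.18, so no direction is given for these 3.

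Snora57, an H/ACA guide, stood at 4.65, 2.68 and 2.05 FPKM in 2CLCs and at 9.09, 14.7 and 11.7 in ESCs, a 3.78-fold difference of means (log2 fold change -1.66, SE 0.21, limma adjusted p = 2e-05). Snord87 stood at 0.458, 0.590 and 2.05 against 6.42, 5.63 and 5.59 (log2 fold change -1.84, SE 0.246, adjusted p = 3.22e-05). Both were lower in each 2CLC library than in any ESC library. The calls of Snord34, Snord35a, Snord49a, Snord49b, Snord65, Snord87 and Snora57 held in every alternative run, as did those of Rn7sk, Rn7s1 and Rn7s2 in the other direction. Those of Rpph1, Rnu1a1 and Rnu1b6 held in each run that tested them, but these RNAs had to be high by the filter. Rpph1 and Rnu1a1 were not tested with the filter of 5 FPKM.

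**Figure D3:**
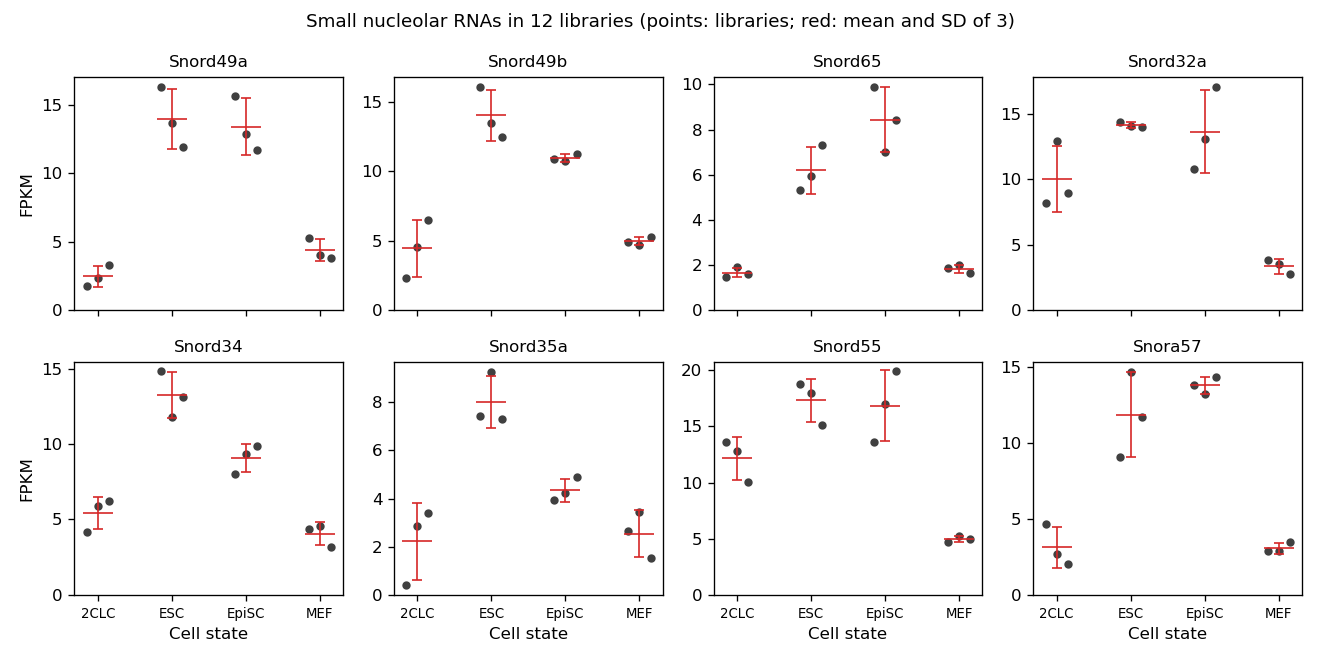
FPKM of Snord49a, Snord49b, Snord65, Snord32a, Snord34, Snord35a, Snord55 and Snora57 in the libraries of each group, with each point a library and red marks the mean ± SD of 3. The MEF libraries lie below the ESC libraries for all 8 RNAs, and the 2CLC libraries lie near the MEF level for Snora57 and above it for Snord55.

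In MEFs each Snord or Snora RNA that was called stood lower than in ESCs, under the deposited, median-of-ratios and quantile scales alike. Of the 56 tested members 2 were called higher and 32 lower, against 34.4% and 40.9% of all genes tested (75.3% in either direction), and the members' median log2 fold change was -0.84 against -0.07 over all genes. The 32 were 24 of 32 Snord (median -1.11), 6 of 14 Snora, 1 of 4 Rnu and Rn7sk. By length, 29 of the 45 members under 160 bases were called lower and none higher (median -1.02), and of the 11 longer ones 2 were called higher and 3 lower (median -0.26). The 83 members together held 0.0269 to 0.0300% of all FPKM in MEF libraries and 0.0583 to 0.0656% in the libraries of the other 3 states.

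Snord32a stood at 3.83, 3.54 and 2.75 FPKM in MEFs, against the ESC values above, a 4.21-fold difference of means (log2 fold change -1.80, SE 0.178, limma adjusted p = 2.33e-06). Snord55 stood at 4.74, 5.28 and 4.95 in MEFs and at 18.8, 17.99 and 15.1 in ESCs (log2 fold change -1.61, SE 0.142, adjusted p = 8.72e-07). Snora57 stood at 2.87, 2.86 and 3.49 in MEFs, a 3.85-fold difference (log2 fold change -1.64, adjusted p = 2.27e-05). In each case the highest MEF library lay well below the lowest ESC library.

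Further large falls were those of Snord83b (1.44, 1.74 and 2.82 FPKM in MEFs, 9.18, 6.72 and 7.85 in ESCs, log2 fold change -1.59, limma adjusted p = 0.000289), Snord58b (-1.56, adjusted p = 1.05e-05) and Snord34 (-1.51, adjusted p = 2.78e-06). Snord49a, at 5.31, 4.03 and 3.85 in MEFs, fell by 1.47, Snord65 by 1.33 and Snord49b by 1.33 on the log2 scale. Snord42b (5.52, 6.53 and 7.90 in MEFs, 18.1, 16.8 and 13.2 in ESCs) fell by 1.15 (adjusted p = 0.000354). Each of these calls held in every alternative run, including median-of-ratios scaling.

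The 2 members called higher in MEFs were the copies of 7SL. Rn7s1 stood at 3.47, 3.38 and 2.88 FPKM in MEFs against 1.25, 1.81 and 1.60 in ESCs (log2 fold change 0.74, limma adjusted p = 0.0179), and Rn7s2 gave 0.71 (adjusted p = 0.0231). Rn7sk stood at 2.00, 0.369 and 0.978 in MEFs against 3.24, 2.93 and 2.17 (log2 fold change -0.90, adjusted p = 0.0303). The groups did not overlap, but single libraries decided these calls. Rn7s1 was not called without ESC replicate 1 (0.65, adjusted p = 0.0626) or MEF replicate 1 (0.70, adjusted p = 0.0522), nor Rn7s2 without ESC replicate 1 (adjusted p = 0.0733), MEF replicate 1 (adjusted p = 0.0703) or MEF replicate 2 (adjusted p = 0.0627). Rn7sk was not called without ESC replicate 1 (adjusted p = 0.0878), ESC replicate 2 (adjusted p = 0.0732), MEF replicate 2 (-0.62, adjusted p = 0.13) or MEF replicate 3 (adjusted p = 0.0685), nor with median-of-ratios scaling (-0.75, adjusted p = 0.0601). In multiples of the step Rn7sk stood at 1.59 to 8.62 in MEFs, so its lowest values rest on very few fragments.

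In EpiSCs fewer of these RNAs were called than in 2CLCs or MEFs. Of the 56 tested members 10 were called higher and 4 lower, against 33.2% and 26.5% of all genes tested (59.7% in either direction), with a median log2 fold change of 0.02 beside 0.01 over all genes. With median-of-ratios scaling the split was 4 and 4, and with quantile normalization 4 and 7. Among the 10 were 5 Snord, 2 Snora, 1 Rnu (Rnu73b) and the 2 copies of 7SL, and the 4 lower were 3 Snord and 1 Snora. EpiSC replicate 1 enters the shared spread of all comparisons in the table. Without it the EpiSC calls were 10 and 3, and the 2CLC and MEF calls were 13 and 28, and 2 and 34.

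Rn7s1 stood at 3.26, 8.85 and 4.92 FPKM in EpiSCs against 1.25, 1.81 and 1.60 in ESCs, 3.65-fold higher by the means (log2 fold change 1.31, SE 0.246, limma adjusted p = 0.000784). Rn7s2 gave 1.24 (adjusted p = 0.00126). All EpiSC libraries lay above all ESC libraries, and without EpiSC replicate 1, the lowest of the 3, Rn7s1 gave 1.59 (adjusted p = 4.01e-05). Rn7sk stood at 2.51, 7.40 and 5.54 in EpiSCs and was not called (0.62, adjusted p = 0.137), but without EpiSC replicate 1 it was (0.98, adjusted p = 0.0125), as was Rnu1b6 (0.66, adjusted p = 0.00427).

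Among guides, Snora17 stood at 9.57, 7.86 and 6.14 FPKM in EpiSCs against 4.33, 3.37 and 2.53 in ESCs (log2 fold change 1.01, limma adjusted p = 0.004). Snora43, counted on 1 of its 2 entries, stood at 5.53, 6.69 and 5.64 against 1.90, 2.66 and 0.923 (log2 fold change 1.34, and 1.54 with the entries summed, adjusted p = 0.000684). Both were higher in every EpiSC library than in any ESC library. Snord65, at 9.90, 7.003 and 8.41, was called higher (0.39, adjusted p = 0.025), but not without EpiSC replicate 1 (adjusted p = 0.0712), EpiSC replicate 3 (adjusted p = 0.0576), ESC replicate 1 (adjusted p = 0.102) or ESC replicate 2 (adjusted p = 0.0709).

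The 4 lower in EpiSCs included Snord42b (6.17, 10.5 and 12.1 FPKM against 18.1, 16.8 and 13.2, log2 fold change -0.72, limma adjusted p = 0.0112) and Snord34 (8.04, 9.35 and 9.86 against 14.9, 11.8 and 13.1, -0.50, adjusted p = 0.0146). The Snord34 call was lost without ESC replicate 1 (-0.42, adjusted p = 0.0608). Snora31 was called lower (-0.67, adjusted p = 0.0456), but not without EpiSC replicate 1 (-0.45, adjusted p = 0.149), ESC replicate 2 (-0.62, adjusted p = 0.115) or ESC replicate 3 (-0.53, adjusted p = 0.153).

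The levels of the host genes were set beside those of their guides, because a guide and its host leave the same primary transcript. All 44 tested members with a host lay in introns of every annotated transcript that spans them, and 12 had no host. In 2CLCs 43 of these had a tested host (36 hosts), with a median log2 fold change of -0.17 for the hosts and -0.56 for the members. Of the 24 members called lower, 11 had a host that was called higher, 8 a host called lower and 5 a host not called. Over the 36 hosts, each counted once, 14 were called higher, 16 lower and 6 were not called. The number with a host called higher was 5 with median-of-ratios scaling, 3 with quantile normalization and 2 on rescaling without members, histone, rRNA and mitochondrial genes. In MEFs, 20 of the 26 lower members had a host called lower and 6 a host not called, and 0 had a host called higher (1 with each of the other scalings). Of the MEF members not called, 14 had a host called lower, 2 a host not called and 1 a host called higher. A host called lower was thus common among members of either kind.

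Rpl13a hosts Snord32a, Snord34 and Snord35a. Its mean was 1291 ± 112 FPKM in 2CLCs beside 952 ± 37.1 for ESCs (SD, n = 3, log2 fold change 0.44, limma adjusted p = 0.00539), but with quantile normalization it gave -0.40, so its direction is not settled. Under each scaling it lay above Snord34 (-1.16 as deposited) and Snord35a (-1.63), which fell in all of them. In MEFs it stood at 661 FPKM (-0.53, adjusted p = 0.00164), in the direction of its guides under each scaling.

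The noncoding host 2410006H16Rik stood at 35.1 ± 0.958 FPKM in 2CLCs, 48.7 ± 3.17 in ESCs, 165 ± 74.5 in EpiSCs and 45.3 ± 1.09 in MEFs. It was not called in 2CLCs (log2 fold change -0.46, limma adjusted p = 0.168) or MEFs (-0.10, adjusted p = 0.787), where its 3 guides fell. In EpiSCs it was called higher (1.61, adjusted p = 0.00054), as was Snord65 but neither Snord49a nor Snord49b. Snhg6, host of Snord87, gave 0.11 in 2CLCs (adjusted p = 0.491), or 0.86 after median-of-ratios scaling, while Snord87 fell. FPKM of a host counts its exons, and the tables hold no measure of how much of each intron was kept or processed.

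**Figure D4:**
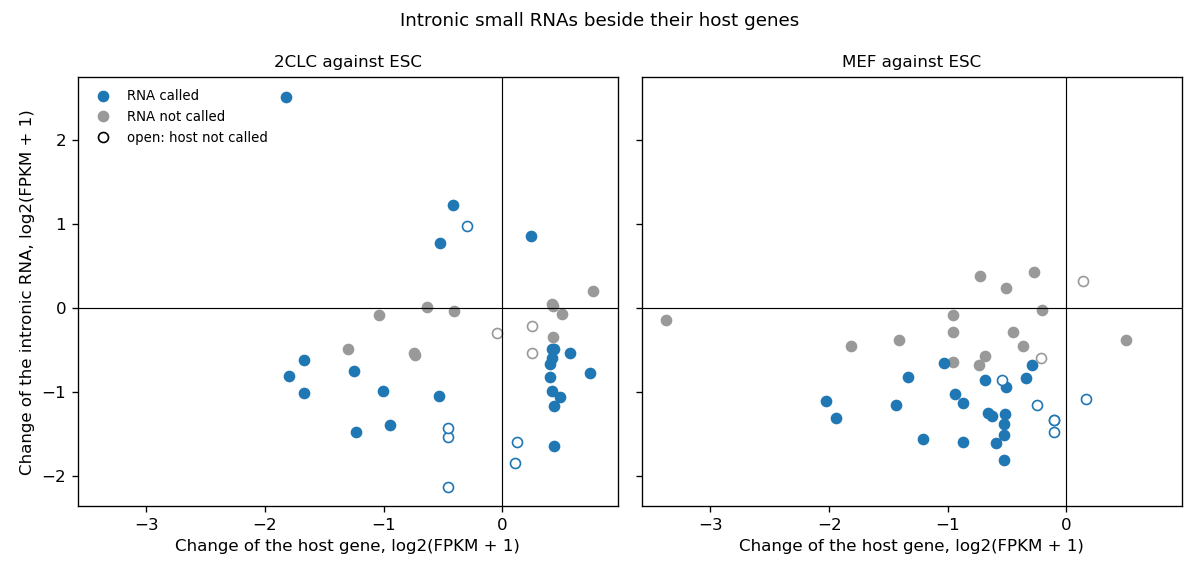
Log2 fold change of each tested member (vertical) against that of its host gene (horizontal) for 2CLCs and MEFs against ESCs. Blue points are members that were called, gray ones were not, and open points have a host that was not called; in 2CLCs 11 called members lie below 0 with a host called higher (2 to 5 with other scalings), and in MEFs 0 do (1 with other scalings).

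The genes of proteins that bind these RNAs were lower in MEFs, apart from those of the signal recognition particle. In 2CLCs the medians of 2 of the 5 lists changed sign with the scaling. Proteins named here and below stand for the RNA of their genes, and no protein was measured. In MEFs 11 of 11 box C/D proteins were called lower (median log2 fold change -1.85), as were 9 of 10 H/ACA and telomerase proteins (-1.57, with 1 higher), 7 of 7 7SK-binding proteins (-1.09) and 10 of 11 RNase P and MRP proteins (-1.12), beside a median of -0.07 over all genes. Of 8 signal recognition particle proteins 4 were higher and 3 lower (0.33). Over all genes tested 40.9% were called lower in MEFs and 34.4% higher. Median-of-ratios scaling left medians of -1.65, -1.38, -0.90, -0.92 and 0.52 in that order.

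In 2CLCs the same lists gave 8 of 11 lower and 1 higher (-0.63), 8 of 10 lower (-0.86), 5 of 7 lower (-0.43), 9 of 11 lower (-0.69) and, for the signal recognition particle, 7 of 8 lower (-0.87), with none higher in the last 4. Over all genes the median was -0.46, with 56.4% called lower and 20.1% higher. The median of the 7SK-binding proteins lay near it, and those of the H/ACA and signal recognition particle lists lay furthest below it. With median-of-ratios scaling the medians of the lists became 0.14, -0.15, 0.32, -0.06 and -0.15. Rn7sk and the identical copies Rn7s1 and Rn7s2 were called higher under each scaling, and none of these medians rose by a like amount. Rpph1 was also called higher, but it had to be high by the filter.

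Fbl, the methyltransferase of box C/D particles, stood at 249 ± 6.11 FPKM in ESCs, 78.8 in MEFs (log2 fold change -1.65) and 161 ± 10.2 in 2CLCs (-0.63, or 0.14 with median-of-ratios scaling). Gar1, an H/ACA core protein, stood at 12.5 ± 0.669 in 2CLCs against 52.2 ± 2.61 in ESCs (-1.98, limma adjusted p = 4.3e-10) and fell under each scaling. Dkc1, the pseudouridine synthase, stood at 117 in ESCs and 21.6 in MEFs (-2.39). Larp7, which binds and steadies 7SK, was not called in 2CLCs (31.9 against 43.2, -0.43, adjusted p = 0.0587) and fell by 1.65 in MEFs. Znhit3, a box C/D assembly factor, rose in 2CLCs from 31.1 to 101 (1.67, adjusted p = 1.31e-08).

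Genes that transcribe these RNAs or trim their ends were also lower in MEFs. There 27 of 35 RNA polymerase III and SNAPc genes were called lower and 1 higher (median -0.82), 30 and 1 of 33 for snRNA ends, caps and Sm proteins (-1.24), 18 and 2 of 23 for tail trimming and exosome (-1.11), and 15 and 0 of 15 for La and U6-binding proteins (-1.59). In EpiSCs the 4 lists gave 15, 23, 14 and 11 lower with 6, 3, 4 and 1 higher (medians -0.25, -0.39, -0.25 and -0.46). In 2CLCs they gave 31, 29, 20 and 14 lower with 3, 1, 2 and 0 higher (medians -1.07, -0.96, -1.23 and -0.91), and with median-of-ratios scaling 18, 15, 12 and 6 lower with 8, 8, 7 and 2 higher (medians -0.32, -0.21, -0.49 and -0.15). As deposited, 40.9%, 26.5% and 56.4% of all genes tested were called lower in MEFs, EpiSCs and 2CLCs. The shares called higher were 34.4%, 33.2% and 20.1%.

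C1d, a cofactor of the nuclear exosome, stood at 230 ± 27.7 FPKM in 2CLCs against 11.6 ± 0.402 in ESCs (log2 fold change 4.19, limma adjusted p = 1.82e-12). Parn, a deadenylase that trims small RNAs, stood at 6.22 against 19.3 (-1.49), and Polr3d, a polymerase III subunit, at 6.03 against 30.3 (-2.15), and both fell under each scaling. Rpp25, an RNase P and MRP protein, stood at 74.4 in ESCs, 0.793 in EpiSCs (-5.42) and 1.26 in MEFs (-5.08). Of 17 noncoding snoRNA host genes 13 fell and 2 rose in MEFs, 0 fell and 4 rose in EpiSCs, and 9 fell and 2 rose in 2CLCs (7 and 6 with median-of-ratios scaling). Over all genes tested, 40.9% fell and 34.4% rose in MEFs, 26.5% and 33.2% in EpiSCs, and 56.4% and 20.1% in 2CLCs. The falls of these hosts in 2CLCs lie near that share. Gas5, host of a series of Snord genes, stood at 17.4 in 2CLCs against 55.9 in ESCs (-1.64) and fell under each scaling.

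Of the 170 members listed for lactate 52 passed the filter, namely 30 Snord, 13 Snora, 1 Scarna, 2 Rnu and the 6 single RNAs. Each of them is among the 83. Without the 60 mM libraries 7 of them would have failed the filter, and 5 each without those of 0 mM or of 80 mM. Rmrp passed with 2 libraries of 60 mM and 1 of 80 mM. Abundant guides differed in their spread over the libraries. Snord32a stood at 23.2, 21.8 and 21.8 FPKM at 0 mM, 29.2, 24.3 and 23.4 at 60 mM and 28.9, 23.8 and 22.9 at 80 mM, and Snord49b at 16.3, 13.9 and 15.3, then 21.0, 16.7 and 15.1, then 21.1, 18.8 and 16.0. Snord55 stood at 21.1, 16.7 and 22.7 at 0 mM, 19.9, 26.4 and 26.2 at 60 mM and 34.7, 16.3 and 25.8 at 80 mM, and its groups overlapped. None of the 3 was called in the lactate comparisons as fitted. At 80 mM some alternatives called Snord49b (0.27 without replicate 1 of 60 mM in the fit, adjusted p = 0.0378, and 0.37 without replicate 3 of 80 mM, adjusted p = 0.0335) and Snord55 (0.56 without replicate 2 of 80 mM, adjusted p = 0.0210). The 60 and 80 mM comparisons share the 0 mM libraries.

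A single library, replicate 1 of 60 mM lactate, held values of 7SL, 7SK and the RNase P and MRP RNAs far above every other lactate library. Rn7s1 stood at 139 FPKM in it, 5.40 and 9.04 in the other 60 mM libraries, 6.52, 5.62 and 11.7 at 0 mM and 5.56, 6.77 and 5.81 at 80 mM. Rmrp stood at 47.4 in it, 1.47 and 0.702 in the other 60 mM libraries, 0.151, 0.139 and 0 at 0 mM and 0.661, 1.64 and 0.624 at 80 mM. Rn7sk stood at 27.3 in it and between 0.120 and 1.91 in the other 8, and Rpph1 at 27.0 and between 0.0775 and 1.38.

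This library had 10 names with at least 5 FPKM and at least 5 times the value of each of the other 8 libraries, and 9 of the 10 were members. Its value divided by the highest other library was 29.0 for Rmrp, 19.6 for Rpph1, 16.9, 13.9, 13.4 and 12.1 for the U3 copies Rnu3b2, Rnu3b3, Rnu3b4 and Rnu3b1, 14.3 for Rn7sk, 11.9 for Rn7s1 and 9.96 for Rn7s2. The other name was Gm24187, annotated as a miRNA (22.7). Each of the other lactate libraries had 0 to 3 such names and no member. By name no Snord or Snora RNA was among the 10, but the U3 copies are box C/D RNAs. Snord49a stood at 16.7 in it beside 9.82 to 19.9 in the others, and Snora57 at 17.7 beside 13.4 to 22.4.

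The members that stood out there were in part those that did in 2CLCs. Of the 9, 6 (66.7%) are also among the 17 that lay above all other libraries in 2CLCs (35.3% of these), namely Rn7sk, Rn7s1, Rn7s2, Rpph1, Rnu3b1 and Rnu3b4. Of all 83 members listed for cell states, these 17 are 20.5%. That share is not matched for length, because each of the 9 has at least 160 bases. Of the 23 listed members that long, 18 had all 2CLC libraries above all ESC libraries. No shared pattern is therefore read from the overlap. Rn7s1 and Rn7s2 are identical in sequence, as are the Rnu3b copies, so the names counted are not separate observations. Others high in 2CLCs were not. Rnu1b6 stood at 1.02 FPKM in replicate 1 of 60 mM beside 0.220 to 0.952 in the others, and Terc at 3.19 beside 0.996 to 3.97. The histone sum was 132 beside 106 to 130, Rny1 was 0.0146, mt-Rnr1 was 192 beside 47.2 to 132 and mt-Rnr2 was 178 beside 83.6 to 129. The members held 0.178% of the library's FPKM and 0.0643 to 0.0847% of the others', and Rn7sk, Rn7s1, Rn7s2, Rpph1 and Rmrp made up 49.4% of the members' FPKM there and 4.02 to 8.85% elsewhere. Across tested genes the library correlated with the other 60 mM libraries at 0.991, beside 0.994 between those. The part of these values in the result was not tested.

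**Figure D5:**
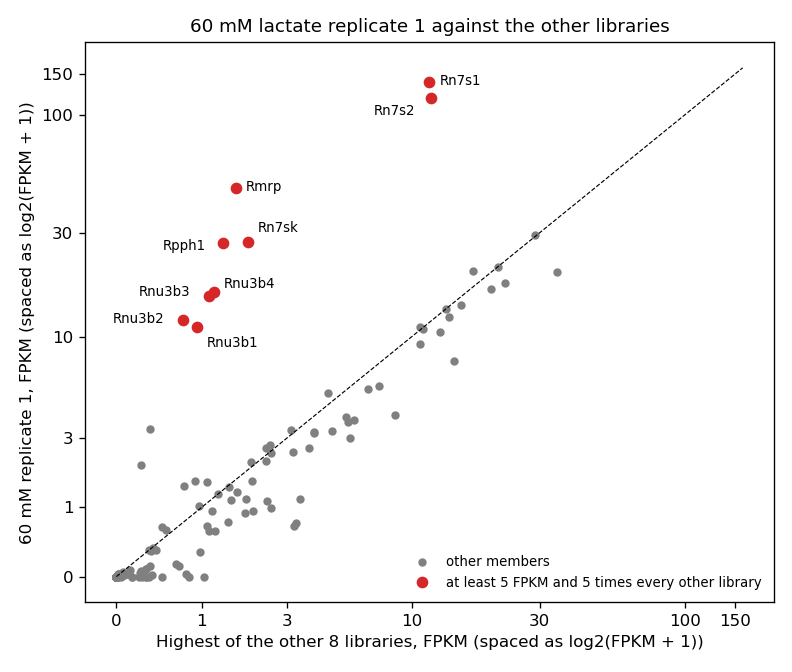
FPKM of each member in replicate 1 of 60 mM lactate (vertical) against the highest of the other 8 lactate libraries (horizontal), with the dashed line at equality. The 9 red points are the members with at least 5 FPKM and at least 5 times every other library, and the gray points are the other members.

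At 60 mM against 0 mM lactate 1 of the 52 tested members was called higher and 2 lower, against 23.5% and 18.6% of the 13271 genes tested (42.1% in either direction), with a median log2 fold change of 0.16 for members and 0.03 for all genes. Without replicate 1 of 60 mM, 2 were called higher and 1 lower. In the full data Rmrp, Rpph1, Rn7sk and Rn7s1 were not called, with log2 fold changes of 2.43 for Rmrp (limma adjusted p = 0.0736), 2.099 for Rpph1 (adjusted p = 0.0518), 1.85 for Rn7sk (adjusted p = 0.0849) and 1.28 for Rn7s1 (adjusted p = 0.286). Without replicate 1 of 60 mM, Rpph1 (0.89, adjusted p = 0.00106) and Rmrp (0.90, adjusted p = 0.0160) were called higher, Rn7sk was not (0.68, adjusted p = 0.105) and Rn7s1 gave -0.10 (adjusted p = 0.808). The filter of the full data was kept in this run. Rmrp passed it only with the library left out, so no conclusion is drawn from its call.

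Called at 60 mM in the full data was Snord17, at 5.52, 4.79 and 4.36 FPKM against 3.18, 2.50 and 2.49 at 0 mM (0.66, limma adjusted p = 0.0308), and lower were Snord70 (1.17, 2.65 and 0.962 against 2.94, 3.45 and 2.73, -0.69, adjusted p = 0.0371) and Snord89 (-0.45, adjusted p = 0.0242). These 3 are named because they were the only calls. Groups did not overlap for Snord17 and Snord70, and Snord70 stood at 3 to 8.43 steps at 60 mM. Single libraries decided all 3 calls. Without replicate 1, 2 or 3 of either group in turn, Snord17 was lost in 4 of 6 cases (adjusted p = 0.0669 to 0.0913 without 0 mM replicates 2 or 3 or 60 mM replicates 1 or 2). Snord70 was lost in 5 (adjusted p = 0.0603 to 0.127, all but 60 mM replicate 2) and Snord89 in 4 (adjusted p = 0.0608 to 0.0852 without 0 mM replicates 1 or 3 or 60 mM replicates 1 or 2).

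At 80 mM against 0 mM lactate 2 members were called higher and 3 lower, against 30% and 23.1% of all genes tested (53.1% in either direction), and the medians were 0.02 and 0.03. Terc stood at 3.91, 2.22 and 3.97 FPKM against 1.38, 2.13 and 0.996 (means 3.37 ± 0.993 and 1.5 ± 0.579, log2 fold change 0.80, limma adjusted p = 0.0305). Snord37 stood at 6.81, 7.44 and 7.37 against 5.31, 1.90 and 5.94 (0.71, adjusted p = 0.0458). Groups did not overlap, but their nearest libraries were close for Terc (2.22 and 2.13) and Snord37 (6.81 and 5.94). Terc was not called without 0 mM replicate 1 (adjusted p = 0.0743), 0 mM replicate 3 (0.65, adjusted p = 0.104), 80 mM replicate 1 (adjusted p = 0.0945) or 80 mM replicate 3 (adjusted p = 0.0965), and Snord37 was not without any single 80 mM library (adjusted p = 0.079, 0.101 and 0.0983). Lower were Snord42b (8.78, 10.2 and 10.1 against 11.1, 13.1 and 11.9, -0.28, adjusted p = 0.0291), Snord70 (-0.64, adjusted p = 0.0424) and Snora2b (1.15, 0.746 and 0.770 against 1.496, 1.86 and 1.49, -0.47, adjusted p = 0.00495). Snord42b was not called without 0 mM replicate 2 (-0.22, adjusted p = 0.104), 0 mM replicate 3 (adjusted p = 0.0585) or 80 mM replicate 1 (-0.22, adjusted p = 0.104), nor Snord70 in 5 of the 6 cases, all but 80 mM replicate 2 (adjusted p = 0.0634 to 0.145), whereas Snora2b was called in all 6.

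Replicate 1 of 60 mM also widens the shared spread of the 80 mM comparison. With it left out, 6 members were called higher and 4 lower at 80 mM, among them Rpph1 (1.07, 1.07 and 1.23 FPKM against 0.232, 0.0775 and 0.403 at 0 mM, log2 fold change 0.79, limma adjusted p = 0.000576, and 0.42 with that library in the fit) and Rmrp (0.81, adjusted p = 0.0102). Rn7s2 was then called lower (-0.59, adjusted p = 0.0363), and Snord37 was no longer called (adjusted p = 0.0553). Rmrp passed the filter only with the library left out here, so no conclusion is drawn from its call. In 0 mM libraries Rpph1 and Rmrp stood at 0 to 1.27 steps, so no ratio is given. At 80 mM against 60 mM no member was called higher and 1 was called lower, Snora2b (0.89 ± 0.228 against 1.98 ± 0.167, -0.66, adjusted p = 0.00895), against 4.06% and 2.11% of all genes tested (6.17% in either direction). By limma 4 of the 52 had an unadjusted p under 0.05 in that comparison.

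Genes of partner proteins were called in both directions in lactate, again by their RNA. At 80 mM 8 of 11 box C/D proteins were called lower and none higher (median log2 fold change -0.23), with Fbl at 207 FPKM against 239 (-0.21), and at 60 mM 6 were lower and none higher (-0.14). Of the H/ACA and telomerase proteins 3 rose and 4 fell at 80 mM. Wrap53, which carries telomerase RNA to Cajal bodies, rose from 15.9 to 27.2 (0.74, limma adjusted p = 9.17e-07), and Tert, the telomerase protein, from 3.26 to 5.04 (0.50, adjusted p = 0.000811). Of 16 noncoding snoRNA hosts 2 rose and 7 fell at 80 mM, and 1 rose and 3 fell at 60 mM. Of all genes tested 30% rose and 23.1% fell at 80 mM, and 23.5% rose and 18.6% fell at 60 mM.

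The members that did not pass the filter were under 1 FPKM in all but 1 or 2 libraries of a table at most, and single libraries could stand high among them. Rnu3b1, Rnu3b2 and Rnu3b4 stood at 11.1, 12.03 and 16.2 FPKM in replicate 1 of 60 mM lactate and at 1.21 or below in the other 8, and Rnu3b1 reached 9.12 in 2CLC replicate 2. In the lactate table they were 118 of 170. By place, 54 members lie in an intron of some transcripts and an exon of others, and none of these was tested, with 0.667 FPKM as their highest value and a median of 0.00935 for their highest library. The 90 members intronic in every transcript had a median highest library of 1.52, and the 24 without a host one of 1.54. Among the 52 tested members 42 were intronic and 10 had no host.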

How the data were processed

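Total RNA from 21 libraries was sequenced, and the values used are FPKM as deposited by the authors, made with HISAT2 2.0.4 on mm10 and StringTie 2.1.4 per the submitters' processing notes. Their annotation and read counts were not used here. StringTie scales FPKM from coverage per base, so short RNAs of different lengths covered by 1 fragment can share a value. The step of a library is its commonest nonzero FPKM above 0.01, with multiples read at a tolerance of 0.0001 of the value. It stands for depth only in such multiples, so no counting interval is given.

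Entries that share a name were summed. Tests used limma 3.58.1 (R 4.3.3) on log2(FPKM + 1), with the groups of each table in 1 model, moderated variances with a mean trend and Benjamini-Hochberg adjustment over the 16358 or 13271 genes with 1 FPKM in 3 libraries. The cell-state and lactate tables were normalized separately by the authors and are not tested against each other. No count model suits FPKM. The procedure was tested on simulated data.

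GENCODE M21 for GRCm38 gave places, lengths and host genes, and sequences were read from that build. Values of 1 further host gene and 1 further sequence are not reported here. Members, lists of partner proteins and tests were chosen with earlier results of these data known. Named are the 6 single RNAs, the 10 members highest by mean in each table, up to 6 called rises and falls per comparison among those with at least 5 FPKM in a group, Rnu members that reach 5 FPKM and, per protein list, the first gene and the 2 largest changes, and other names are marked as chosen after their values were seen. Samples were grouped by the labels. Replicate numbers do not pair the samples.

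Other settings tried were pseudocounts of 0.1 and 5, a filter of 5 FPKM or no filter, scaling by median of ratios or by quantiles, rescaling without members, histone, rRNA and mitochondrial genes, no mean trend, only the compared groups, repeated names left out, a replicate block, a minimum change of 1 (log2) and leaving out each library. Chosen after seeing the data were leaving EpiSC replicate 1 or 60 mM replicate 1 out of the shared spread, 1 entry per repeated name, the split at 160 bases and the histone names. Python 3.11.15, numpy 2.4.6, pandas 2.3.3, matplotlib 3.10.9 and Biopython 1.88 handled tables, figures and sequences.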

Additional observations from a re-analysis of the deposited data

How the results depend on the processing

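Calls are given as members higher and lower. In 2CLCs (13 and 28) the higher calls became 25 with no filter and 6 with a filter of 5 FPKM, and the lower became 14 with that filter, 14 with a minimum change of 1 and 13 with median-of-ratios scaling, under which Snord32a (0.23), Snord42b (0.18) and Snord55 (0.24) turned positive. In EpiSCs (10 and 4) the higher became 5 with a pseudocount of 0.1, 6 with the 5 FPKM filter, 6 with only the compared groups, and 4 with median-of-ratios scaling, quantile normalization or a minimum change of 1, and the lower became 2 with no filter, 7 with quantile normalization and 0 with the minimum change. In MEFs (2 and 32) the higher became 0 with a pseudocount of 5, quantile normalization or the minimum change, and the lower 18 with the 5 FPKM filter.

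At 60 mM against 0 mM (1 and 2) the higher became 4 with a pseudocount of 0.1, 3 with only the compared groups, and 0 with no filter, the 5 FPKM filter, quantile normalization or the minimum change, and the lower became 1 with no mean trend and 0 with no filter, the 5 FPKM filter or the minimum change. At 80 mM against 0 mM (2 and 3) the higher became 1 with a pseudocount of 0.1, the 5 FPKM filter, median-of-ratios scaling, no mean trend or repeated names left out, 0 with no filter, quantile normalization or the minimum change, 5 with only the compared groups and 6 with 60 mM replicate 1 out of the shared spread. The lower became 1 with no filter or the 5 FPKM filter, 5 with only the compared groups and 0 with the minimum change. At 80 mM against 60 mM (0 and 1) the higher became 1 with only the compared groups and the lower 0 with the 5 FPKM filter or the minimum change. Stricter filters test fewer members. The cause of the other shifts was not tested.

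Leaving out each library in turn gave 11 to 14 higher and 21 to 26 lower in 2CLCs, 4 to 10 and 2 to 5 in EpiSCs, 0 to 3 and 29 to 33 in MEFs, 0 to 5 and 0 to 3 at 60 mM, 0 to 6 and 1 to 3 at 80 mM, and 0 to 0 and 1 to 2 at 80 against 60 mM. Deviations of same-numbered libraries correlated at -0.066 to 0.103 in the cell-state table and -0.014 to 0.072 in the lactate table, so the numbers are not taken as pairs. With the replicate number as a block the calls were 13 and 27, 10 and 4, 2 and 32, 5 and 2, 7 and 3, and 0 and 1 in the same order of comparisons. The block added calls of Snord32a at 60 mM (0.19, adjusted p = 0.0229) and 80 mM (0.17, adjusted p = 0.0301) and of Snord49b at 80 mM (0.27, adjusted p = 0.0189), the last also called with only the compared groups (adjusted p = 0.0455).

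Depth limits many guides in 2CLCs and MEFs, where 15 to 23 of the 56 tested members stood below 3 steps in a library. With 3 libraries a group, and labels silent on separate cultures, small changes at low level are not resolved.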
